A study of Saccharomyces cerevisiae with 4 samples.

Results

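Iron homeostasis in budding yeast is run at the transcript level by a small set of genes, and 8 of them are described here: the transcription factor genes AFT1 and AFT2, the mRNA decay genes TIS11 (also called CTH2) and CTH1, the heme breakdown gene HMX1, the mitochondrial iron carrier gene MRS4, and the scaffold genes ISU1 and ISU2. They form a list of names drawn up with earlier results of these data known, and each was found by its symbol and open reading frame. All 8 were on the array, each with 1 probe set out of 7519, and all were called Present on each of the 4 arrays. They are 8 of 5116 genes that entered the test across all genes.

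Cells of the haploid laboratory strain BY4741 of Saccharomyces cerevisiae were grown in MM4 medium to the middle of their exponential phase and put into fresh medium. The 2 control samples then spent 15 min without drug and the 2 quinine samples 15 min with quinine, an antimalarial alkaloid, at 1 g/L. The quinine was brought in with ethanol, at 0.7% by volume, and the labels do not say whether the control medium held it too, so the drug and its solvent cannot be told apart. Each sample was read on 1 Affymetrix yeast array, which gave a signal intensity in arbitrary units for each probe set.

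When iron is scarce, Aft1 and Aft2 move into the nucleus and switch on genes that bring iron into the cell or release it from stores. Among the genes they switch on is TIS11, whose protein binds AU-rich elements in messenger RNAs of iron-using proteins and promotes their decay, which saves iron for essential uses. The signal that holds Aft1 back when iron is ample comes from iron-sulfur clusters made in mitochondria on the Isu scaffold, with iron supplied in part by Mrs4. It is passed on by the glutaredoxins Grx3 and Grx4 with Fra1 and Bol2 (Fra2).

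The array medians lay between 596 and 636. Transcripts specific to mating type a, the type of this strain, were Present on all 4 arrays for 7 of 7 genes, with summed signals of 27882 to 33084 in controls and 29991 to 35583 with quinine. Of 4 alpha-type genes 3 could be measured, and 2 of these were Present on all 4 arrays. The summed signals of the 3 were 737 to 776 in controls and 825 to 862 with quinine. STE3, the pheromone receptor gene of alpha cells, was Present on all 4 arrays, with signals between 27.4 and 47.6. Most of the sum came from SAG1, at 527 and 600 in controls, against 653 and 656 with quinine. The labels do not say whether replicates came from separate cultures, so p-values rest on a spread between samples that may be technical only. No member passed an adjusted p of 0.05 in limma, where 0.0195% of all genes did (1 of 5116). The adjusted p values of the 8 lay between 0.178 and 0.972. At an unadjusted p under 0.05 in limma there were 3 members, TIS11, ISU1 and ISU2, against 18.4% of all genes. TIS11 and ISU1 were higher at that level, as were 6.37% of all genes, and ISU2 was lower, as were 12% of all genes.

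Both quinine arrays lay above both control arrays for TIS11, CTH1 and ISU1, against 19.8% of all genes, and both lay below for ISU2, against 29.8% of all genes. The arrays of the other 4 members overlapped between the groups. Separation in either direction thus held for 4 of 8 members, and for 49.6% of all genes, which is close to the background. The median log2 fold change of the 8 members was 0.05, beside -0.03 for all genes.

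**Figure D1:**
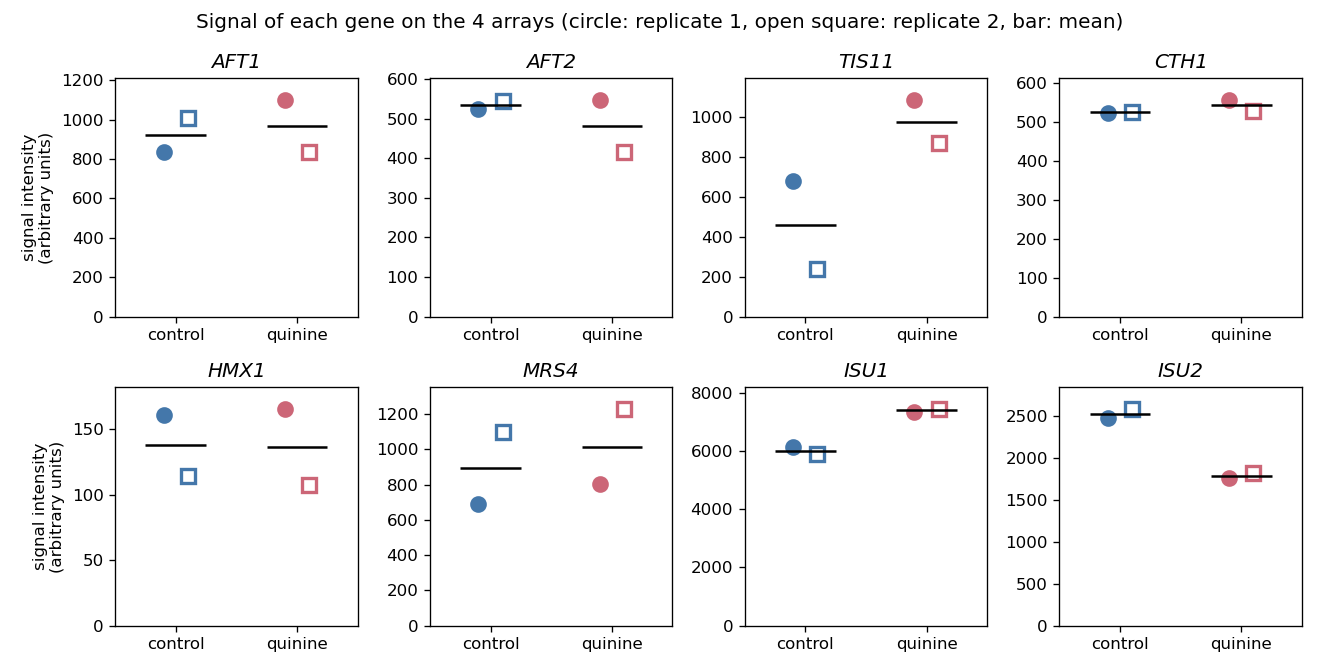
Signal intensity (arbitrary units, each axis from 0) of the 8 genes on the 2 control and the 2 quinine arrays, with 1 point per array and a bar at each group's mean. The groups stand clear of each other for ISU1 and ISU2, TIS11 has its lowest value on control replicate 2, and MRS4 and HMX1 split by replicate number instead of by treatment.

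The regulators come first. AFT1 (YGL071W), the main activator of the iron uptake genes, read 838 and 1011 without the drug, and 1100 and 837 with it. The lowest and the highest of these 4 values were both from quinine arrays. Its log2 fold change was 0.06 with a standard error (SE) of 0.21, and its 95% interval in limma, not adjusted for multiple tests, ran from -0.46 to 0.58. Without control replicate 1 or quinine replicate 1 the sign of the AFT1 value turned, to -0.08 and -0.14.

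AFT2 (YPL202C), its paralog with a weaker role in uptake, read 523 and 544 in controls, against 547 and 415 with quinine. Here too the quinine arrays held both the highest and the lowest value. The log2 fold change was -0.16 ± 0.19 (SE), with an interval from -0.64 to 0.31. It was 0.036 without quinine replicate 2, the array with the lowest signal. Signals of both regulators differed more between the quinine arrays, by 0.40 on the log2 scale in each, than between the control arrays, by 0.27 for AFT1 and 0.06 for AFT2. On both quinine arrays AFT1 and AFT2 kept nearly the same signal ratio, 2.01 and 2.02, while the control arrays had 1.60 and 1.86.

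TIS11 (YLR136C) had the largest change of the 8 genes. Control replicates 1 and 2 read 678 and 237, and quinine replicates 1 and 2 read 1085 and 868. Both quinine values were above both controls, but the 2 controls were 2.87-fold apart, a gap wider than that of 99.1% of all genes. The control mean was 457 ± 312 (SD, n = 2), and the quinine mean 977 ± 153 (SD, n = 2). The log2 fold change of 1.28 ± 0.48 (SE), or 2.42-fold, was larger in size than that of 98.7% of all genes, and its adjusted p in limma was 0.245. Its 95% interval ran from 0.10 to 2.46.

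How large the TIS11 difference was depended on which control array was used. It was 4.10-fold without control replicate 1 and 1.43-fold without control replicate 2. In such a fit the lone control left was assumed to vary like the quinine arrays, so only the folds are given. Over the alternatives with all 4 arrays and no replicate block, the adjusted p of TIS11 in limma ranged from 0.224 to 0.324. Leaving out either quinine array gave 2.17-fold and 2.71-fold. The authors' deposited table gives TIS11 a fold of 2.14, with bounds of 1.14 and 10.54, and did not mark it.

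CTH1 (YDR151C) encodes the related CCCH zinc finger protein, which acts with Tis11 in the decay of messages when iron is low. The controls read 523 and 526, and the quinine arrays 556 and 529. All 4 values lay close together, and although both quinine values were above both controls, the lower of them was only just so. The log2 fold change was 0.05 ± 0.16 (SE), with an interval from -0.34 to 0.43. The gap between its control arrays was narrower than that of all but 1.93% of genes. The wide control gap of TIS11 was thus not seen in its paralog on the same arrays. The log2 ratio of TIS11 to CTH1 averaged -0.39 ± 1.08 over the controls (SD, n = 2), and 0.84 ± 0.18 over the quinine arrays (SD, n = 2).

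**Figure D2:**
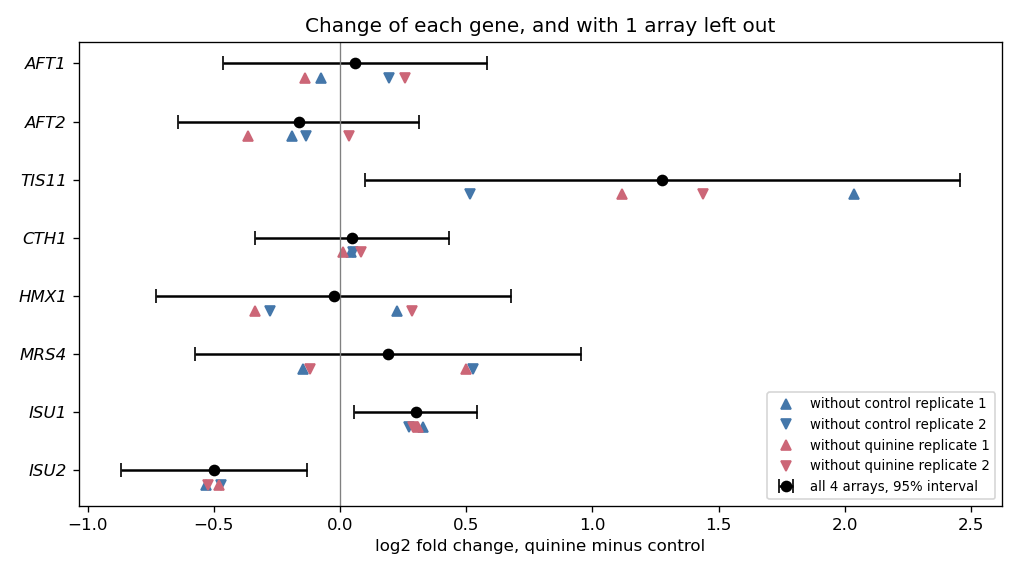
Log2 fold change, quinine minus control, of each gene from all 4 arrays (black, with its 95% interval) and with 1 array left out (triangles). ISU1 and ISU2 stayed within narrow ranges, TIS11 moved between 0.52 and 2.04 with the choice of control array, and AFT1, AFT2, HMX1 and MRS4 had values on both sides of 0.

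HMX1 (YLR205C), an Aft1-activated gene of the endoplasmic reticulum whose product takes part in heme breakdown, read 161 and 114 in controls, against 165 and 107 with quinine. The 2 groups covered nearly the same range, and the log2 fold change was -0.03 ± 0.29 (SE), with an interval from -0.73 to 0.68. Both arrays numbered 1 lay above both arrays numbered 2, as they did for 26.2% of all genes. With that spread, leaving out control replicate 1 gave 0.22, and leaving out quinine replicate 2 gave 0.29. HMX1 and TIS11 are both known Aft1 targets, and whether their changes differ from each other was not tested.

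MRS4 (YKR052C), which carries iron across the inner mitochondrial membrane and is an Aft target, read 688 and 1098 in controls, against 801 and 1229 with quinine. For MRS4 the order ran the other way, with both arrays numbered 2 above both numbered 1, as in 11.7% of all genes. Its groups overlapped, the log2 fold change was 0.19 ± 0.31 (SE) and the interval ran from -0.57 to 0.96. Leaving out control replicate 1 gave -0.15, and leaving out quinine replicate 2 gave -0.12. MRS3, the gene of the paralogous carrier, was steadier, reading 1077 and 1044 in controls, against 1339 and 1273 with quinine. Both quinine arrays were above both controls for MRS3, with a log2 fold change of 0.30 ± 0.16 (SE) at an adjusted p of 0.384 by limma. The log2 ratio of MRS3 to MRS4 overlapped between groups, and its change was 0.11.

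The scaffold genes gave even readings within each group, and their values with quinine lay on opposite sides of the controls. ISU1 (YPL135W), which encodes the main scaffold on which iron-sulfur clusters are built, read 6123 and 5887 in controls, against 7344 and 7443 with quinine. Every quinine value was above every control value, by far more than the arrays of a group differed. The means were 6005 ± 167 (SD, n = 2) without and 7394 ± 70.1 (SD, n = 2) with the drug. The log2 fold change of 0.30 ± 0.10 (SE), or 1.23-fold, had an adjusted p of 0.203 in limma.

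ISU2 (YOR226C), its paralog with an overlapping role, read 2471 and 2579 in controls, against 1758 and 1812 with quinine. Both quinine values lay below both controls. The means were 2525 ± 76.9 (SD, n = 2) without and 1785 ± 38.0 (SD, n = 2) with the drug. The log2 fold change was -0.50 ± 0.15 (SE), 1.41-fold lower, at an adjusted p of 0.178 by limma. ISU2 was the 1 member the authors marked in their deposited table, with a signed fold of -1.42 and bounds of -1.32 and -1.52. They marked 12.7% of the genes tested here, and 8.33% as lower. For ISU1 the authors' deposited table gives a fold of 1.22 with bounds of 1.15 and 1.30, and no mark.

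The 95% intervals of the 2 scaffold genes, not adjusted for multiple tests, did not reach 0. They ran from 0.06 to 0.54 for ISU1 and from -0.87 to -0.13 for ISU2. The interval of TIS11 did not reach 0 either, and 18.4% of all genes had an unadjusted p under 0.05 in limma. In size the change of ISU1 was larger than that of 62.5% of all genes, and that of ISU2 than 82.4%. With 1 array left out the log2 fold change stayed between 0.27 and 0.33 for ISU1 and between -0.53 and -0.47 for ISU2, and no such value passed over all genes. After quantile normalization the log2 fold changes were 0.29 for ISU1 and -0.51 for ISU2. Median centring moves all genes alike, and with array medians of 596 to 636 it could not have turned either sign. The ratio of the ISU1 signal to the ISU2 signal on the same array, which scaling by a common factor cannot move, was 2.48 and 2.28 in controls, against 4.18 and 4.11 with quinine. This ratio was 1.74-fold higher with quinine. It does not give the relative abundance of the 2 transcripts, since each probe set has its own brightness.

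Of the 4 related pairs compared in this way, the quinine ratios lay apart from the control ratios in 3, those of ISU1 over ISU2, TIS11 over CTH1 and AFT1 over AFT2. The share over other gene pairs was not computed, and the arrays of single genes separated in either direction for 49.6% of all genes. The exact two-sided permutation test over 2 against 2 arrays gave p = 0.333 for each of these 3 pairs, the smallest it can give, and 0.444 after adjustment over the 4 pairs. The AFT pair changed by 0.22 on the log2 scale, and its control ratios had an SD of 0.15.

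**Figure D3:**
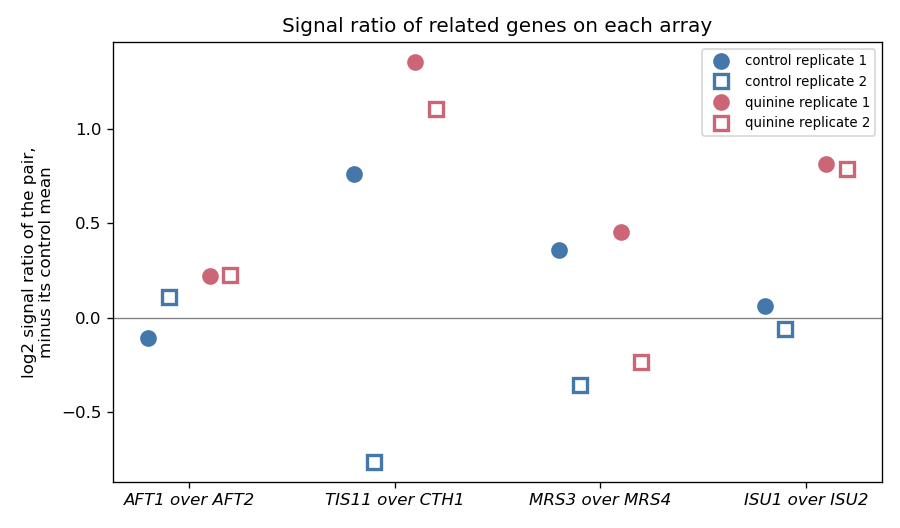
Log2 signal ratio of 4 pairs of related genes on each array, with the mean of the 2 control arrays set to 0. The ISU1 over ISU2 ratio is 0.80 higher with quinine with little spread, the TIS11 over CTH1 ratio is spread widely in controls, and the MRS3 over MRS4 ratio splits by replicate number.

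Genes that pass the iron signal to Aft had log2 fold changes from -0.34 to 0.27. GRX3 read 1722 and 1754 in controls, against 2134 and 1655 with quinine, and its arrays overlapped between groups. GRX4, the other of the paralogous glutaredoxins, read 1168 and 1801 in controls, against 1080 and 1213 with quinine. Its log2 fold change was -0.34 ± 0.25 (SE) with overlapping arrays. BOL2 was at -0.06 ± 0.17 (SE), also with overlap. FRA1 was the 1 of the 4 partners whose arrays separated, as those of 49.6% of all genes did. It read 691 and 752 in controls, against 907 and 838 with quinine. Its log2 fold change was 0.27 with an adjusted p of 0.442 in limma. With YAP5, CCC1 and TYW1, which belong to the response to high iron, the list of 7 genes had a median of 0.11, which was -0.07 without quinine replicate 1 and 0.30 without quinine replicate 2. The largest change among these 7 was that of TYW1, an iron-sulfur enzyme of tRNA modification, at -0.49 ± 0.18 (SE). CCC1 lay on the other side, at 0.45 ± 0.18 (SE), and YAP5 was at 0.27 ± 0.20 (SE) with overlapping arrays.

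The uptake genes that Aft1 activates were mostly higher, by small amounts. Of 12 tested genes of reductive uptake, copper supply and iron transport, 11 had a higher mean with quinine, against 46.6% of all genes, with a median log2 fold change of 0.26 beside -0.03 for all genes. Both quinine arrays were above both controls in 7 of them, against 19.8% of all genes. The median hung on single arrays: leaving out control replicate 1 gave 0.45, control replicate 2 gave 0.15, quinine replicate 1 gave 0.18 and quinine replicate 2 gave 0.41. The largest change in the list was downward: the low-affinity iron transporter gene FET4 read 2088 and 2617 in controls, against 1275 and 1411 with quinine, a log2 fold change of -0.80 ± 0.19 (SE) with an adjusted p of 0.121 in limma. FRE2 and FRE5 were not analysed here.

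In the siderophore list all 7 genes had a higher mean, against 46.6% of all genes, with a median of 0.21 (0.12 without quinine replicate 1). In 4 of them both quinine arrays were above both controls, against 19.8% of all genes. SIT1, a transporter of ferrioxamine-type siderophores, had the largest change, from signals of 1530 and 823 in controls to 2512 and 2062 with quinine, 2.03-fold, with an adjusted p of 0.190 in limma. SIT1 passed in the fit without control replicate 1, its higher control, where the lone control left was assumed to vary like the quinine arrays. The 2 control arrays of SIT1 were 0.90 apart on the log2 scale, with control replicate 1 the higher, as for TIS11. Over the 12 uptake genes, control replicate 1 was above control replicate 2 by a median of 0.21, and over all genes by 0.04. The medians of quinine replicate 1 minus replicate 2 were 0.19 and 0.12. The part of this array difference in the values of TIS11 and SIT1 was not tested. The biotin permease gene VHT1, which Aft1 also activates, was at 0.21 ± 0.13 (SE), and BIO5, the other gene of its list, at -0.17.

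Genes that build iron-sulfur clusters went both ways, as ISU1 and ISU2 did. Of 16 tested mitochondrial assembly genes, 9 had a higher and 7 a lower mean, where 46.6% of all genes had a higher mean. Their median was 0.16, or 0.08 when control replicate 2 was left out and 0.044 when quinine replicate 1 was. Both quinine arrays lay above both controls in 6 and below in 4, beside 19.8% and 29.8% of all genes. The largest change was that of JAC1, the J-protein that brings Isu to its Hsp70 partner, at -0.49 ± 0.21 (SE). BOL1 was not analysed here. The 8 genes of the cytosolic assembly pathway had a median of -0.04, which turned to 0.04 without control replicate 2 or quinine replicate 2, with TAH18, which supplies electrons to that pathway, at -0.55 ± 0.23 (SE).

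The consumers of iron went both ways within each list. Among 8 heme synthesis genes 3 had a higher and 5 a lower mean, where 46.6% of all genes had a higher mean. Their median was -0.03 (0.10 without quinine replicate 2 and 0.016 without control replicate 1), with the ferrochelatase gene HEM15 at 0.22 ± 0.26 (SE). Of 23 genes of iron-using proteins, whose messages include known targets of Tis11 and Cth1, 15 had a higher and 8 a lower mean. That is a larger share with a higher mean than the 46.6% of all genes. Their median was 0.10. Leaving out control replicate 1 gave 0.19, control replicate 2 gave -0.0081, quinine replicate 1 gave 0.039 and quinine replicate 2 gave 0.16. Both quinine arrays were above both controls in 4 and below in 4, beside 19.8% and 29.8% of all genes, so these shares were no larger than the background. SDH2, the iron-sulfur subunit gene of succinate dehydrogenase, had the largest change, 1523 and 954 in controls against 3328 and 2591 with quinine, 2.44-fold with an adjusted p of 0.100 in limma. Of the 83 genes tested in these 8 lists, 0 passed an adjusted p of 0.05 over all genes in limma. With lists and directions pooled, 11 had an unadjusted p under 0.05 in limma, a smaller share than the 18.4% of all genes. The share differed by list: 3 of 12 in reductive uptake, 2 of 7 for siderophores and 2 of 7 in iron sensing. It was 1 of 16 in mitochondrial assembly, 3 of 23 for iron-using proteins, and 0 in the other lists. Without control replicate 1, 2 of the 83 passed, SIT1 and SDH2, beside 2.05% of all genes.

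**Figure D4:**
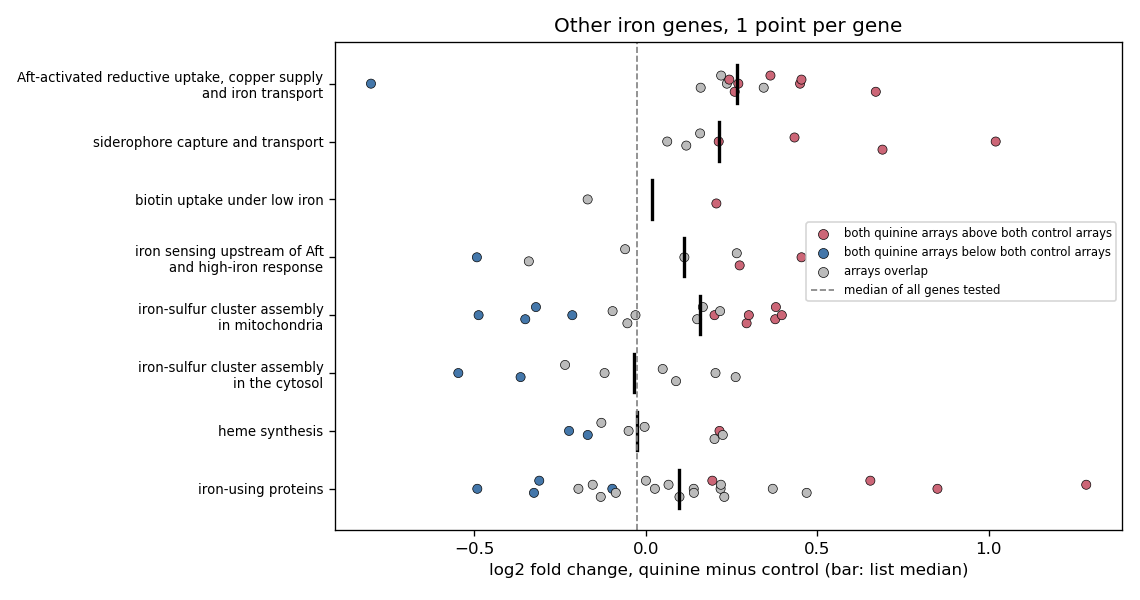
Log2 fold change, quinine minus control, of the other iron genes, with 1 point per gene, a bar at each list's median and a dashed line at the median of all genes tested. The 2 uptake lists lie mostly to the right of the dashed line apart from FET4 at -0.80, while the lists of cluster assembly, heme synthesis and iron-using proteins spread to both sides.

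The genes whose signals followed TIS11 most closely over the 4 arrays were not iron genes from these lists. Likeness was taken as the root mean square difference of log2 signals, each gene being centred on its own mean, over 4 arrays and 5116 genes. The closest 5 were SAM50, MIG3, GLD1, GLK1 and MAG1, with differences from 0.12 to 0.18, beside a median of 0.86 over all genes. SAM50, at 990 and 352 in controls against 1308 and 1178 with quinine, had the same low value on control replicate 2. GLK1, the glucokinase gene, read 3953 and 1819 in controls, against 6743 and 4818 with quinine. These are descriptions of 4 arrays, with no test.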

How the data were processed

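The authors deposited 1 linear signal intensity per probe set and array. MAS5 is named, with no role or version, per the submitters' processing notes. How the arrays were scaled is not stated in the labels. The authors' deposited table adds group means, standard errors and signed fold changes with bounds, used as scores, and the percent of arrays called Present. Coordinates are left out because the array's build is not named in the labels.

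The open reading frame of 5273 of the 7519 probe sets matched 1 gene of the R64 reference gene table, and 5202 of these were Present on at least 2 arrays. The brightest probe set was kept for 78 genes with several, leaving 5116 genes. Signals as deposited were compared as log2 values with limma 3.58.1 in R 4.3.3 (trended eBayes, 2 residual and 3.87 prior degrees of freedom, Benjamini-Hochberg over all genes). The steps were tested on simulated data. Folds are ratios of geometric means. The number of arrays limits the precision.

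The members and lists were chosen with earlier results of these data known. Named were the members, their partners and MRS3, the largest change of each list, and the 5 genes most like TIS11. Others were named to complete a list, as not analysed, or as mating type genes.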

Additional observations from a re-analysis of the deposited data

How the results depend on the processing

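The count of genes past the threshold, 1 in all, was 0 after quantile normalization, after median centring and without a variance trend, 2 with log2(signal + 16), and 16 with a robust trend. When 1 array was left out, which leaves a lone array assumed to vary like the other group's, it ranged from 0 to 105, with 105 without control replicate 1 and 25 without control replicate 2. Other filters and the mean of probe sets left it at 1. With the replicate number as a block it was 1461 of 5116. Among these were 3 of the 8 members (TIS11, ISU1 and ISU2) and 18 of the 83 list genes. In this block fit a smaller share of the list genes passed than of all genes. The share of the members was somewhat larger, on 3 genes. That fit has 1 residual degree of freedom and took its spread wholly from the trend, so a gene's own scatter did not enter. Across genes, the differences between replicates 1 and 2 in the 2 groups had a Pearson correlation of 0.62 (genes are not independent replicates), but the labels do not say that numbers pair the samples. The sign of 4 members turned, in each case only when 1 array was left out, with log2 fold changes from -0.14 (without quinine replicate 1) to 0.26 for AFT1, from -0.36 to 0.036 (without quinine replicate 2) for AFT2, from -0.34 to 0.29 for HMX1 and from -0.15 (without control replicate 1) to 0.53 for MRS4. Signs of the other 4 members were kept in all 13 alternatives. Of 104 list medians recomputed, 6 moved by more than the spread between replicates, all with 1 array left out. Their values stand beside each list; the cause was not tested.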
